A study of Mus musculus with 20 samples.

Results

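The Hox genes of the mouse are 39 rows of the 24421 gene rows in these counts, chosen by name as every symbol that reads Hox, a cluster letter a to d and a paralog number, and ordered by cluster and number. Levels were followed across 20 libraries of total RNA from motor neurons made from embryonic stem cells of the mouse, in 10 groups of 2. The labels name 2 lines, NIL (spinal) and NIP (cranial). As background from outside the labels, these names stand for the programming factors Neurog2, Isl1 and Lhx3 (NIL) or Neurog2, Isl1 and Phox2a (NIP). Each line was sampled at 0 h without treatment, and at 12 h and 36 h both untreated and with 20 µM cyclopiazonic acid (CPA), a blocker of the calcium pump that fills the endoplasmic reticulum. All groups were day 2 neurons kept in Neurobasal medium with serum, B27 and growth factors. On the times the labels conflict: the titles have 12 h and 36 h, the treatment notes 6 h and 12 h. The titles were followed. The labels do not say whether replicates 1 and 2 were separate cultures, so the p-values speak of the spread of the libraries alone, which may be technical. They also name no clone number or transgene promoter for either line.

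Hox genes encode homeodomain transcription factors that give cells their position along the head to tail axis. They lie in clusters in which the order of the genes matches the order of their domains in the embryo, with low paralog numbers in the hindbrain and high numbers in the caudal spinal cord and tail. Retinoic acid, Cdx factors and Gdf11 act upstream of the clusters, Polycomb proteins keep silent members silent, and Pbx and Meis proteins bind DNA together with Hox proteins. In motor neurons Hox proteins select column and pool identity, for example Hoxc6 at limb levels and Hoxc9 at thoracic levels. Paralogs 1 to 4 are called anterior here, 5 to 9 central and 10 to 13 posterior.

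The homeobox, the coding stretch for the DNA-binding domain, is where paralogs are most alike. Over whole coding sequences, the longest run that a Hox gene shared with any other Hox gene was 17 to 52 bases with a median of 28, the longest being between Hoxb4 and Hoxa6. Reads that mapped to more than 1 place were left out of the counts, and the read length is not given in the sources used here.

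Of the 39 members, 22 had a promoter entry in the RefSeq table (GRCm38.p6), 24 entries in all. Hoxb2, Hoxb3, Hoxb5 and Hoxb9 had no entry, so their promoters were not searched for any pattern. Besides the patterns given below, the ERSE and CARE types of stress response elements and the DR5 retinoic acid type were searched. Each was in 0 of 24 Hox entries, against 0.113%, 3.45% and 0.00913% of all promoters. Hoxb4 and Hoxb8, which differed between the lines below, are shown as the 250 bases before the gene start, both on the plus strand, with matches to TGATNNAT, a pattern of Hox-Pbx type, in capitals. Both strands were searched.
Hoxb4 (chr11:96318017-96318266): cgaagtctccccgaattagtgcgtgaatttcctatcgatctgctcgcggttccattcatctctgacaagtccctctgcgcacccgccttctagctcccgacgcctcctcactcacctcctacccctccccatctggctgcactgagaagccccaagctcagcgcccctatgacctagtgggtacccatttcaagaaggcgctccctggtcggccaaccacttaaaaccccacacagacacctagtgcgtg
Hoxb8 (chr11:96281655-96281904): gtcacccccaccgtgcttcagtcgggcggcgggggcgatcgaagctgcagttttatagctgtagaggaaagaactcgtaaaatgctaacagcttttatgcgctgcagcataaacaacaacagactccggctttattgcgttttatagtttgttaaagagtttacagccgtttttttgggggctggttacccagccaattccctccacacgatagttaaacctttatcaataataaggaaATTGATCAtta
Hoxb8 held 1 match and Hoxb4 held none. Over all promoters of the same length, 7.68% of 32851 held the pattern, against 4 of the 24 Hox entries (Hoxa2, Hoxb1, Hoxb8 and Hoxd11). The CCAAT box was in 14 of 24 Hox entries and in 33.8% of all. The TGACGTGG pattern, known from unfolded protein response elements, was in 1 of 24, that of Hoxa11, and in 0.563% of all.

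Hox reads were few. Gene reads ran from 7996454 to 30321152 a library, Hox reads from 305 to 2769 (median 970.5), and 1 read was worth 0.0319 to 0.128 CPM (the count per 1000000 reads, with library sizes scaled by TMM factors). The ribosomal precursor Rn45s took 5.18% to 38.6% of gene reads (median 11.6%), and 2 libraries stood apart, NIP at 36 h replicate 1 (38.6%) and NIL at 36 h with CPA replicate 2 (38.3%). The line labels were met in every library: Lhx3 stood at 115 to 166 CPM in NIL and 0 to 0.326 in NIP, and Phox2a at 56.9 to 322 CPM in NIP and 0.0839 to 3.31 in NIL. Hspa5, the chaperone raised by stress of the endoplasmic reticulum, rose in NIL from 422 ± 101 CPM untreated to 3825 ± 929 with CPA at 12 h (SD, n = 2). Other cell types were present too. The summed level of 10 markers of pluripotent cells was 40.5 to 664 CPM in NIL and 12.2 to 114 in NIP, that of 10 endoderm markers 1533 to 14368 against 206 to 3788, and that of 10 proliferation genes 199 to 655 against 32.5 to 170.

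Most Hox genes were scarcely expressed. Between 19 and 31 of the 39 had a read in a given library (median 28), and 21 passed the filter on low counts that the tests need. The 18 others, among them Hoxb1, Hoxc6, Hoxc8, Hoxc10 and Hoxd10, reached at most 13 reads and 1.28 CPM in any library. No read fell on Hoxc11 or Hoxd12 in any library, and a count of 0 allows up to 3 reads, which is 0.385 CPM in the library where a read was worth most. Hoxb1, known as the hindbrain segment gene of facial motor neurons, had 4 reads in all 20 libraries, and Hoxc6 had 13.

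**Figure D1:**
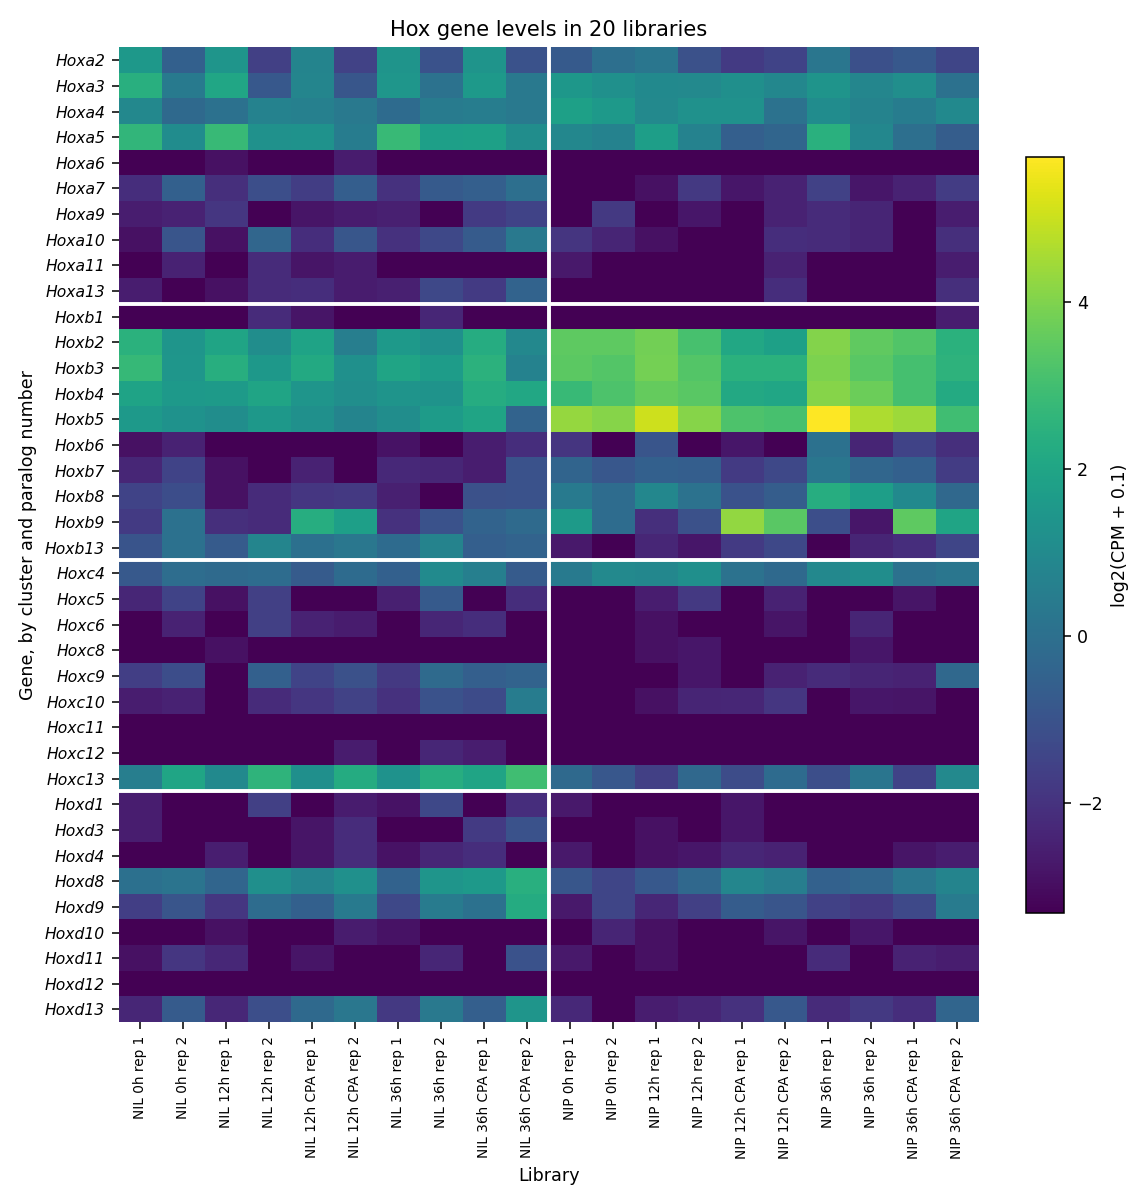
Level of Hox genes (rows, by cluster and paralog number, white lines between clusters) in the 20 libraries (columns, NIL left and NIP right of the white line) as log2(CPM + 0.1). Hoxb2 to Hoxb5 are brightest in the untreated NIP libraries, Hoxb9 is bright with CPA, and Hoxc13 is brighter in NIL.

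Per kilobase of exon, the order of the Hox genes differed between the lines. In NIP the highest medians were Hoxb5 (9.70 CPM per kb), Hoxb2 (6.38), Hoxb4 (3.39) and Hoxb3 (2.82). In NIL Hoxb2 (1.66), Hoxc13 (1.56), Hoxa5 (1.54) and Hoxb5 (1.21) were among the highest, and their ranges over the 10 libraries overlapped, so no order holds among them. Annotated exons of Hoxb2 and Hoxb3 overlap the antisense gene Hoxb3os over 58.5% and 63.9% of their length, so reads of the opposite strand cannot be told apart there if strands were pooled. Hoxb4, Hoxb5, Hoxb7, Hoxb8 and Hoxb9 share no exon with another annotated gene.

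The clusters had unequal weight in the 2 lines. The Hoxb cluster (chromosome 11, 96194316 to 96368256, 10 genes) held a median of 77.7% of Hox reads in NIP (63.0% to 86.4%) and 39.0% in NIL (22.2% to 52.6%), with no overlap. The Hoxa cluster (chromosome 6, 52155590 to 52260880, 11 genes) held 16.9% in NIP and 33.3% in NIL. The Hoxc cluster (chromosome 15, 102921103 to 103036852, 9 genes) held 3.18% in NIP and 15.1% in NIL, and the Hoxd cluster (chromosome 2, 74668310 to 74765142, 9 genes) 1.60% and 9.18%. Positions are those of GRCm38 in GENCODE vM21. By paralog number, posterior genes held a median of 1.44% of Hox reads in NIP and 15.7% in NIL, and anterior genes 55.6% and 54.0%. The summed Hox level was 45.3 to 127 CPM in NIP and 32.4 to 47.5 in NIL, ranges that overlapped.

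The 7 tested Hoxb genes from Hoxb2 to Hoxb9 were higher in NIP in the mean over conditions. For Hoxb9 (log2 difference 1.50, edgeR adjusted p = 0.017) this did not hold in each condition. Untreated, its group means in NIL and NIP were 0.126 and 0.252 CPM at 12 h. At 36 h they were 0.267 and 0.202 CPM, on 8 and 4 reads. Hoxb5 (chromosome 11, 96303336 to 96306121), a central paralog of the hindbrain and cervical cord, stood in NIL at 2.80 and 2.37 CPM at 0 h (replicates 1 and 2), 2.07 and 2.79 at 12 h, and 2.06 and 3.02 at 36 h. In NIL with CPA it stood at 2.22 and 1.62 CPM at 12 h and 3.81 and 0.642 at 36 h. The NIP libraries stood at 19.7 and 17.1 CPM at 0 h, 33.0 and 16.9 at 12 h, 53.5 and 24.5 at 36 h, 9.21 and 8.43 at 12 h with CPA, and 21.2 and 7.61 at 36 h with CPA. All 10 NIP libraries were above all 10 NIL libraries, which held for 5.56% of all tested genes and for no other Hox gene. The log2 difference, averaged over the 5 matched conditions, was 2.99 ± 0.29 (SE, edgeR adjusted p = 1.69e-06).

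Hoxb4 (chromosome 11, 96318267 to 96321638), an anterior paralog of the hindbrain and cervical cord, followed the same order. In NIL it stood at 3.73 and 2.88 CPM at 0 h, 2.96 and 3.83 at 12 h, 2.46 and 2.43 at 36 h, 2.56 and 2.11 at 12 h with CPA, and 4.76 and 4.24 at 36 h with CPA. In NIP it was at 6.84 and 9.12 CPM at 0 h, 12.19 and 10.55 at 12 h, 16.92 and 13.03 at 36 h, 4.32 and 3.99 at 12 h with CPA, and 8.29 and 4.58 at 36 h with CPA. Untreated libraries of the lines did not overlap, and those with CPA did. The mean log2 difference was 1.39 ± 0.14 (edgeR adjusted p = 1.94e-06).

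Hoxb2 and Hoxb3, anterior paralogs of the hindbrain, were near each other in level. Untreated, Hoxb2 stood in NIL at 5.39 and 2.54 CPM (0 h), 3.80 and 2.09 (12 h) and 2.86 and 2.24 (36 h), and in NIP at 11.1 and 11.3, 13.8 and 8.55, and 16.7 and 11.3. With CPA it stood in NIL at 3.78 and 1.37 CPM (12 h) and 4.82 and 1.80 (36 h), and in NIP at 4.27 and 3.44, and 9.65 and 5.46. The lines did not overlap without CPA and overlapped with it. Hoxb3 untreated stood in NIL at 6.66 and 2.63 CPM (0 h), 5.06 and 2.79 (12 h) and 3.87 and 3.11 (36 h), and in NIP at 11.01 and 9.93, 14.5 and 9.94, and 15.4 and 10.7. With CPA Hoxb3 stood in NIL at 4.41 and 2.24 CPM (12 h) and 5.58 and 1.54 (36 h), and in NIP at 5.37 and 5.50, and 8.34 and 5.66. The mean log2 difference was 1.50 ± 0.25 for Hoxb2 (edgeR adjusted p = 0.000226) and 1.25 ± 0.24 for Hoxb3 (0.000828).

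Hoxb7 and Hoxb8, central paralogs of the spinal cord, were low in both lines and lowest in NIL. Hoxb8 stood in NIL at 0.255 and 0.339 CPM at 0 h, 0.0340 and 0.116 at 12 h, 0.0724 and 0 at 36 h, 0.168 and 0.187 at 12 h with CPA, and 0.381 and 0.385 at 36 h with CPA. The NIP values were 1.19 and 0.812 CPM at 0 h, 1.74 and 0.976 at 12 h, 4.89 and 3.30 at 36 h, 0.384 and 0.545 at 12 h with CPA, and 1.86 and 0.741 at 36 h with CPA. Only the highest NIL and the lowest NIP values met. Hoxb7 ran from 0 to 0.385 CPM in NIL (median 0.0898) and from 0.192 to 1.07 in NIP (median 0.574). The mean log2 difference was 3.11 ± 0.31 for Hoxb8 (edgeR adjusted p = 2.15e-06) and 2.46 ± 0.42 for Hoxb7 (0.000297). Hoxb6, between them and Hoxb5, had 40 reads in 12 libraries and was not tested.

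**Figure D2:**
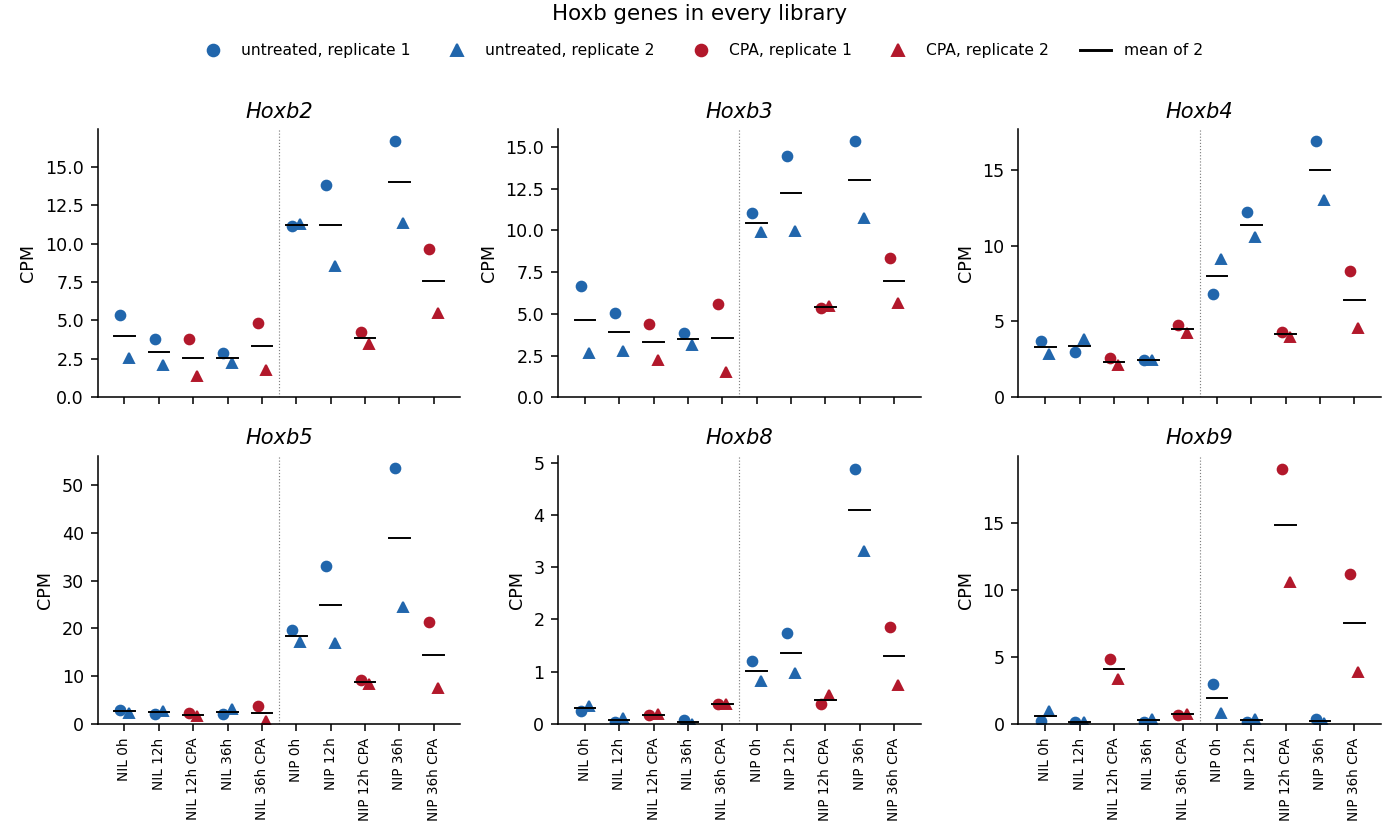
CPM (vertical axes, from 0) of 6 Hoxb genes in the 10 groups, with circles for replicate 1, triangles for replicate 2, red for CPA, blue for untreated and a bar at the mean of 2. The NIP groups right of the dotted line are higher for Hoxb2 to Hoxb8 untreated, and Hoxb9 is above 3 CPM in both lines with CPA at 12 h.

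Group by group, fewer members passed than in the mean over conditions. At 0 h 3 of 21 tested members passed the threshold, against 12.5% of all tested genes: Hoxb4 (log2 difference 1.26 ± 0.30, edgeR adjusted p = 0.0135) and Hoxb5 (2.81 ± 0.63, 0.00908) were higher in NIP and Hoxb13 was lower. Hoxb4 was lost without NIL or NIP replicate 2 (adjusted p up to 0.126) and Hoxb5 without either NIL library (up to 0.0703). At 12 h 6 of 21 passed against 12%, and at 36 h 7 of 21 against 11.6%. Blocking on replicate number, 10 of 21 passed at 0 h (26.3% of all genes), adding Hoxa4, Hoxb2, Hoxb3 and Hoxb8 as higher and Hoxa5, Hoxa7 and Hoxc13 as lower in NIP.

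At 12 h Hoxb2 (1.88 ± 0.55, adjusted p = 0.0411), Hoxb4 (1.76 ± 0.30, 0.00171), Hoxb5 (3.39 ± 0.65, 0.00363), Hoxb7 (0.0192) and Hoxb8 (0.00159) were higher in NIP by edgeR. NIL had 1 Hoxb7 read and 2 Hoxb8 reads at 12 h, so their fitted folds depend on the prior count. The ratios of NIP to NIL from the reads were 22.0 (95% exact counting interval 3.65 to 896) and 27.1 (7.24 to 228). At 36 h Hoxb2 (2.43 ± 0.57, 0.0129), Hoxb3 (1.88 ± 0.55, 0.0416), Hoxb4 (2.61 ± 0.31, 0.000139), Hoxb5 (3.96 ± 0.66, 0.00144), Hoxb7 (2.95 ± 0.86, 0.0412) and Hoxb8 (0.00015) were higher. For Hoxb8 at 36 h the ratio was 70.9 (19.2 to 593) on 2 NIL reads. In the blocked fit 8 of 21 passed at each of these times (27.9% and 28.8% of all genes), adding Hoxb3 at 12 h (1.64 ± 0.32, 0.000986, against 0.0753 without the block) and Hoxc13 as lower at 12 h (-2.93 ± 0.48, 0.000208, against 0.0653) and 36 h (-2.40 ± 0.50, 0.00151, against 0.155). Without both libraries rich in Rn45s, 3 of these 6, Hoxb4, Hoxb5 and Hoxb8, still passed at 36 h. Leaving out single libraries of a comparison left Hoxb4 past the threshold at 12 h and 36 h and Hoxb5 and Hoxb8 at 36 h in each of the 4 fits. Hoxb5 and Hoxb8 at 12 h were lost without NIL replicate 1 (0.0541 and 0.0603), and Hoxb2 at 36 h without NIL replicate 1, NIL replicate 2 or NIP replicate 1 (up to 0.122). Hoxb7 and Hoxb2 at 12 h, and Hoxb7 and Hoxb3 at 36 h, were lost without any 1 of the 4 libraries (adjusted p up to 0.119, 0.249, 0.169 and 0.251).

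With CPA in both lines fewer members passed than untreated in the fit without the replicate block. At 12 h 1 of 21 passed (10.2% of all genes), Hoxb5 at 2.19 ± 0.63 (edgeR adjusted p = 0.0413), and at 36 h 2 of 21 (16.9%), Hoxb5 at 2.59 ± 0.64 (0.0139) and Hoxb9 at 3.44 ± 0.86 (0.0154). With the replicate block 8 of 21 passed at 12 h (26.7%) and 12 of 21 at 36 h (37.5%). Of these, 5 and 7 were lower in NIP, with Hoxc13, Hoxa5, Hoxa7 and Hoxd13 at both times. Untreated, 8 of 21 passed at 12 h and at 36 h in that fit, so the blocked counts were not lower with CPA. Hoxb5 at 12 h with CPA was lost without any 1 of the 4 libraries (adjusted p up to 0.252), and both calls at 36 h were lost without the 2 libraries rich in Rn45s. At 36 h Hoxb5 was also lost without NIL replicate 2 or NIP replicate 1 (up to 0.178), and Hoxb9 without either NIL library or NIP replicate 1 (up to 0.143).

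Over the 5 conditions 19 of 21 tested members differed between the lines, against 49.5% of all tested genes, with 9 higher in NIP (25.5% of all genes) and 10 lower (24%). In the blocked fit 19 of 21 passed too (61.5% of all genes). The median log2 difference of the 21 was -0.05, beside 0.01 over all tested genes. By zone, 5 anterior members were higher and 1 lower, 4 central members were higher and 5 lower, and the 4 tested posterior members were all lower. Beside the Hoxb genes, Hoxa4 (0.71 ± 0.22, edgeR adjusted p = 0.016) and Hoxc4 (0.72 ± 0.25, 0.0306), both of the cervical cord and hindbrain, were higher in NIP. Hoxa3, an anterior gene of the hindbrain, did not pass and ran from 0.435 to 5.23 CPM in NIL (median 1.41) and from 0.943 to 2.71 in NIP (2.02).

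**Figure D3:**
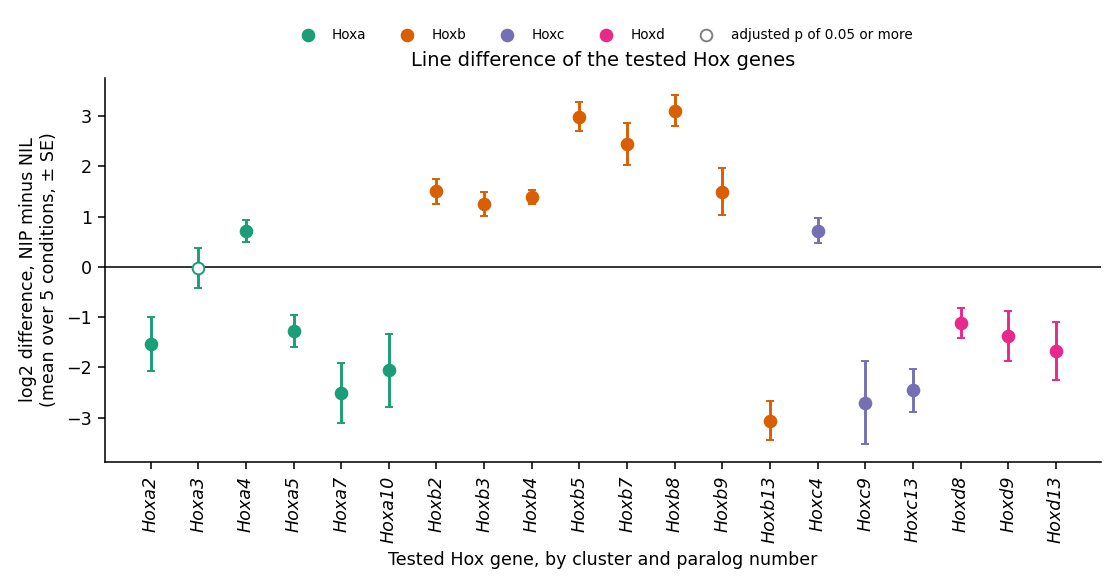
Log2 difference NIP minus NIL averaged over the 5 conditions (vertical axis, ± SE) for tested Hox genes in cluster order, coloured by cluster, with open circles where the adjusted p was 0.05 or more. Hoxb2 to Hoxb9 lie above 0 and Hoxb13 and the tested members numbered 8 and over in the other clusters lie below.

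The members lower in NIP were of high paralog number, with 2 exceptions in Hoxa. Hoxb13 (chromosome 11, 96194316 to 96197447), the posterior end gene of its cluster, stood in NIL at 0.414 and 0.932 CPM (0 h), 0.510 and 1.63 (12 h), 0.796 and 1.56 (36 h), 0.923 and 1.12 (12 h with CPA) and 0.571 and 0.642 (36 h with CPA). The NIP values were 0.0543 and 0, 0.0986 and 0.0465, 0 and 0.0917, 0.192 and 0.294, and 0.127 and 0.269 in the same order. All 10 NIL libraries were above all 10 NIP libraries, which held for 3.62% of all tested genes and for no other Hox gene. Its mean log2 difference was -3.06 ± 0.39 (edgeR adjusted p = 2.62e-05). It passed at 0 h (adjusted p = 0.0236), 12 h (0.0115) and 36 h (0.012), with NIL to NIP ratios of 16.4 (2.67 to 674) on 1 NIP read at 0 h and 15.1 (3.91 to 129) on 2 NIP reads at 36 h. At each of these times it was lost without any 1 of 3 of the 4 libraries, with adjusted p up to 0.121, 0.0966 and 0.0761.

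Hoxc13, a posterior gene known from hair and nails, was the posterior member with most reads. It stood in NIL at 1.37 and 3.90 CPM (0 h), 1.87 and 5.81 (12 h), 2.39 and 4.96 (36 h), 2.18 and 4.66 (12 h with CPA) and 3.81 and 7.70 (36 h with CPA). In NIP it stood at 0.760 and 0.451, 0.230 and 0.743, 0.357 and 1.05, 0.336 and 0.797, and 0.254 and 1.82 in the same order. Within each replicate number all NIL libraries were above all NIP libraries, and replicate 2 was higher than replicate 1 in 9 of 10 groups. How many of all genes do so was not counted. The mean log2 difference was -2.46 ± 0.43 (edgeR adjusted p = 0.000347).

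The other members of this kind were low. Hoxd8 ran from 0.615 to 5.14 CPM in NIL (median 1.90) and from 0.271 to 1.68 in NIP (0.716), a log2 difference of -1.12 ± 0.30 (edgeR adjusted p = 0.00696). Hoxd9 (medians 0.700 and 0.255 CPM, -1.37 ± 0.50, 0.0362) and Hoxd13 (0.540 and 0.123, -1.68 ± 0.58, 0.0286) were lower too. Hoxa7 (0.417 and 0.0659 CPM), Hoxa10 (0.358 and 0.0910, -2.06 ± 0.73, 0.0305) and Hoxc9 (0.356 and 0.0652), the thoracic determinant, had medians near the worth of single reads in NIP. Of the 19 NIP reads of Hoxc9, 11 lay in NIP at 36 h with CPA replicate 2 (0.741 CPM, near the highest NIL value of 0.778), and that group had 13 reads against 14 in NIL. Hoxa7 (adjusted p = 0.00422) and Hoxc9 (0.017) had no read in NIP at 0 h, where their 11 NIL reads each make NIL at least 2.51-fold higher when the NIP group is set to the 3 counts that 0 allows, so no fitted fold is given.

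Hoxa5 and Hoxa2 were also lower in NIP. Hoxa5, a central gene of the cervical cord that specifies phrenic motor neurons together with Hoxc5, stood in NIL at 6.22 and 2.03 CPM (0 h), 6.73 and 2.32 (12 h), 6.77 and 3.41 (36 h), 2.39 and 1.31 (12 h with CPA) and 3.43 and 2.05 (36 h with CPA). In NIP it stood at 1.74 and 1.53, 3.25 and 1.53, 5.36 and 1.74, 0.576 and 0.671, and 0.889 and 0.539 in the same order. The lines overlapped, and the mean log2 difference was -1.27 ± 0.31 (edgeR adjusted p = 0.00431), opposite in sign to that of its paralog Hoxb5. Hoxa2, a hindbrain gene, ran from 0.232 to 2.74 CPM in NIL and from 0.192 to 1.08 in NIP (-1.53 ± 0.54, 0.0305).

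Single libraries decided part of these 19 calls. Leaving out each of the 20 libraries in turn, 14 to 19 members passed. Hoxa2, Hoxc4 and Hoxd9 were each lost in 10 of the 20 fits (adjusted p up to 0.206, 0.0704 and 0.0817), Hoxa10 in 7 (0.134) and Hoxd13 in 5 (0.0717). Without both libraries rich in Rn45s, Hoxa4, Hoxa10, Hoxb9, Hoxc4, Hoxd9 and Hoxd13 were lost. Hoxa4 was also lost without NIP at 12 h with CPA replicate 1 (0.0555), Hoxb9 without NIP at 36 h replicate 1 (0.163) and Hoxc9 without NIL at 12 h replicate 2 (0.99988), where the remaining library of that group has no Hoxc9 read. Hoxa5, Hoxa7, Hoxb2, Hoxb3, Hoxb4, Hoxb5, Hoxb7, Hoxb8, Hoxb13, Hoxc13 and Hoxd8 passed in all 26 alternative fits. Because these are bulk samples, fewer cells of a type and less RNA per cell cannot be told apart.

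Hox levels also differed by replicate number, a comparison added after seeing the data. In the fit with the block, 15 of 21 members differed between replicates 2 and 1, against 49.2% of all tested genes, with 9 higher in replicate 2 and 6 lower. Among the higher were Hoxd13 (log2 difference 1.59 ± 0.34), Hoxa10 (1.68 ± 0.51), Hoxc9 (1.52 ± 0.49), Hoxd9 (1.44 ± 0.30), Hoxc13 (1.29 ± 0.21), Hoxa7 (1.23 ± 0.39), Hoxb13 (0.77 ± 0.29) and Hoxd8 (0.65 ± 0.23). Lower were Hoxa2 (-1.68 ± 0.34), Hoxa3 (-1.08 ± 0.24), Hoxa5 (-0.998 ± 0.176), Hoxb2 (-0.70 ± 0.14), Hoxb3 (-0.64 ± 0.15) and Hoxb5 (-0.61 ± 0.21). Of the 10 members lower in NIP 8 were higher in replicate 2. The share of all genes lower in NIP that were also higher in replicate 2 was not counted, so this overlap is not shown to be particular to Hox genes. In the same fit 10 of 10 pluripotency markers and 10 of 10 proliferation genes were higher in replicate 2. Of 10 neuron genes 9 were lower. Hoxa2 fell apart most plainly by replicate: in NIL replicate 1 it ran from 1.59 to 2.74 CPM over 308 reads, and in NIL replicate 2 from 0.232 to 0.593 over 20 reads.

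Within each replicate number the sign of the line difference held for 18 of the 19 members called. These members were called on the same libraries, so the match of signs is no separate evidence. Its share among all called genes was not counted. The exception was Hoxa2, whose difference of mean log2(CPM + 0.1) was -1.86 in replicate 1 and 0.12 in replicate 2. For Hoxb5 it was 3.16 and 2.80, for Hoxb4 1.42 and 1.29, for Hoxb13 -1.98 and -2.53, and for Hoxc13 -2.33 and -2.45. For Hoxa10 it was -0.59 and -1.83, and for Hoxb9 2.03 and 0.60. Each replicate number holds 5 libraries of each line and no replicate within a group, so no test was made within it.

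Markers of other cell types moved with both splits. The 10 pluripotency markers summed to medians of 49.1 CPM in NIL replicate 1, 297 in NIL replicate 2, 15.4 in NIP replicate 1 and 51.4 in NIP replicate 2. The 10 endoderm markers summed to 2604, 7433, 334 and 1623 CPM, the 10 mesenchyme markers to 83.2, 196, 13.6 and 47.6, and the 10 proliferation genes to 224, 630, 47.3 and 137 in the same order. Between the lines 9 of 10 pluripotency, 9 of 10 endoderm, 6 of 7 tested mesenchyme and 10 of 10 proliferation genes were lower in NIP, and 5 of 10 neuron genes were higher and 1 lower. None of these markers was without reads. Of motor neuron genes 5 of 12 were higher and 5 lower, of tested neural progenitor genes 2 of 9 higher and 6 lower, and of tested glia genes 2 of 5 higher and 2 lower. Of all tested genes 25.5% were higher and 24% lower in this comparison. Their part in the Hox differences was not tested.

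**Figure D4:**
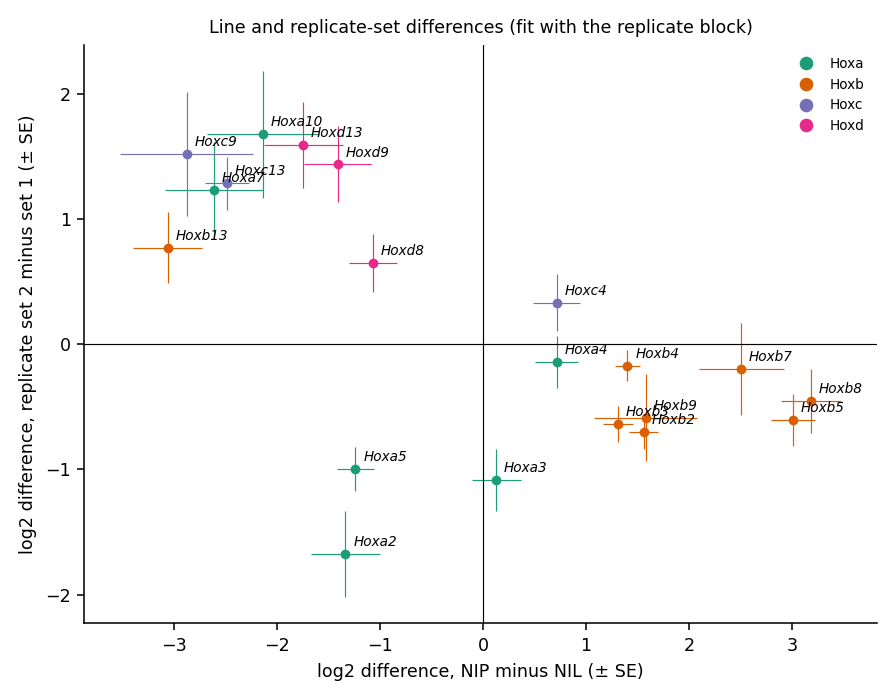
Log2 difference between replicates 2 and 1 (vertical axis, ± SE) against that between NIP and NIL (horizontal axis, ± SE) for tested Hox genes, both from the fit with the replicate block. The upper left holds the 8 members that were lower in NIP and higher in replicate 2, all numbered 7 or more, while Hoxa2 and Hoxa5 lie at the lower left and Hoxb2 to Hoxb9 at the lower right.

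CPA raised Hoxb9 (chromosome 11, 96271457 to 96276595), a central gene of the thoracic cord, at 12 h in both lines and at 36 h in NIP. In NIL it stood at 0.191 and 0.932 CPM at 0 h, 0.136 and 0.116 at 12 h and 0.145 and 0.389 at 36 h without CPA, and with CPA at 4.87 and 3.36 at 12 h and 0.634 and 0.770 at 36 h. NIP libraries were at 2.98 and 0.812 CPM at 0 h, 0.131 and 0.372 at 12 h and 0.357 and 0.0459 at 36 h without CPA, and with CPA at 19.0 and 10.6 at 12 h and 11.2 and 3.84 at 36 h. In reads, NIP at 12 h had 4 and 8 without CPA and 397 and 252 with it. In each of the 4 comparisons both CPA libraries were above both untreated ones. The share of all genes with such an order was not counted. The log2 change was 4.92 ± 1.02 in NIL at 12 h (edgeR adjusted p = 0.0221), 5.90 ± 0.93 in NIP at 12 h (0.00339) and 5.62 ± 1.04 in NIP at 36 h (0.0134). In NIL at 36 h it was 1.56 ± 1.05 (0.458).

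The CPA changes of Hoxb9 in the lines were not shown to differ. The difference of the responses, NIP minus NIL, was 0.99 ± 1.48 at 12 h (edgeR adjusted p = 0.999936) and 4.06 ± 1.55 at 36 h (0.940). Within replicates 1 and 2 the change in NIP was 6.37 and 4.50 at 12 h and 4.62 and 4.76 at 36 h on the log2(CPM + 0.1) scale. The call in NIL at 12 h was lost without any 1 of the 4 libraries (adjusted p up to 0.177), that in NIP at 12 h without NIP at 12 h replicate 1 (0.0749), and that in NIP at 36 h without 3 of the 4 libraries (up to 0.191) and without the libraries rich in Rn45s.

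The neighbours and paralogs of Hoxb9 had other values. Hoxb8, 5.3 kb away in the annotation, had a log2 difference with CPA in NIP of -1.54 ± 0.54 at 12 h (edgeR adjusted p = 0.147) and -1.61 ± 0.52 at 36 h (0.149), and in NIL at 36 h went from 2 to 9 reads, a ratio of 7.24 (1.50 to 68.9). Hoxb13 lies 74.0 kb away on the other side and did not pass with CPA in either line. The paralogs of Hoxb9 were low: Hoxd9 ran from 0.0543 to 0.271 CPM in untreated NIP and from 0.296 to 1.28 with CPA, and did not pass, while Hoxc9 had 19 reads in all NIP libraries and Hoxa9, not tested, at most 0.257 CPM in any library.

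Across members, CPA called at most 2 of the 21 tested Hox genes in a comparison without the replicate block. In NIL 1 of 21 passed at 12 h (2.21% of all genes) and 0 of 21 at 36 h (0.98%), where 3 had an unadjusted edgeR p under the threshold. In NIP 2 of 21 passed at 12 h (4.71%) and 2 of 21 at 36 h (2.33%), Hoxb9 higher and Hoxb4 lower each time. With the replicate block 2 passed in NIL at 12 h (7.94%), 4 in NIL at 36 h (18.2%), 7 in NIP at 12 h (14.1%) and 6 in NIP at 36 h (10.3%). The median log2 change of the 21 members was 0.05 and 0.51 in NIL at 12 h and 36 h and -0.35 and -0.39 in NIP, where the medians of all genes were -0.03, 0.01, -0.01 and 0.03.

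In NIP Hoxb4 was lower with CPA at both times. It fell by 1.45 ± 0.30 on the log2 scale at 12 h (edgeR adjusted p = 0.014) and by 1.21 ± 0.29 at 36 h (0.0497). The log2 difference of Hoxb5 was -1.50 ± 0.58 (0.192) and -1.42 ± 0.58 (0.288), that of Hoxb2 -1.54 ± 0.54 (0.143) and -0.88 ± 0.53 (0.530), and that of Hoxa5 -1.94 ± 0.73 (0.175) and -2.23 ± 0.74 (0.168). With the replicate block these 3 and Hoxb8 passed as lower at both times, with adjusted p of 0.0344 and 0.0396 for Hoxb5, 0.00210 and 0.0463 for Hoxb2, 0.00684 and 0.00332 for Hoxa5, and 0.0448 and 0.0191 for Hoxb8, and Hoxb3 passed at 12 h (0.0206). Without the block the call of Hoxb4 at 12 h was lost without any 1 of its 4 libraries (adjusted p up to 0.122). At 36 h it was lost without NIP replicate 1, NIP replicate 2 or NIP with CPA replicate 2 (up to 0.375), without the filter on low counts and without the libraries rich in Rn45s.

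In NIL the direction at 36 h was the other way for Hoxb4. Its log2 difference was 0.88 ± 0.31 (edgeR adjusted p = 0.177, and 0.0470 with the replicate block), and that of Hoxd8 was 1.40 ± 0.64 (0.281, block 0.0365) and of Hoxd9 1.92 ± 0.98 (0.332, block 0.0323). Hoxb8 passed with the block too (0.0456). Hoxd8, a central gene, ran in NIP from 0.271 to 0.743 CPM untreated (median 0.528) and from 1.10 to 1.68 with CPA (1.50). Its changes there were 1.35 ± 0.64 at 12 h (edgeR adjusted p = 0.304) and 1.04 ± 0.68 at 36 h (0.569), neither past the threshold. At 12 h in NIL the block added Hoxa5, at -1.25 ± 0.37 (0.0452). For Hoxb4 the difference of the 36 h responses, NIP minus NIL, was -2.09 ± 0.43 with an adjusted p of 0.328, against -2.10 ± 0.39 and 0.0497 with the block. No other member passed in this comparison or in that at 12 h, and 0% of all genes passed in either without the block (0.128% at 36 h with it), while 3 and 2 members had an unadjusted edgeR p under the threshold at 36 h and 12 h.

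**Figure D5:**
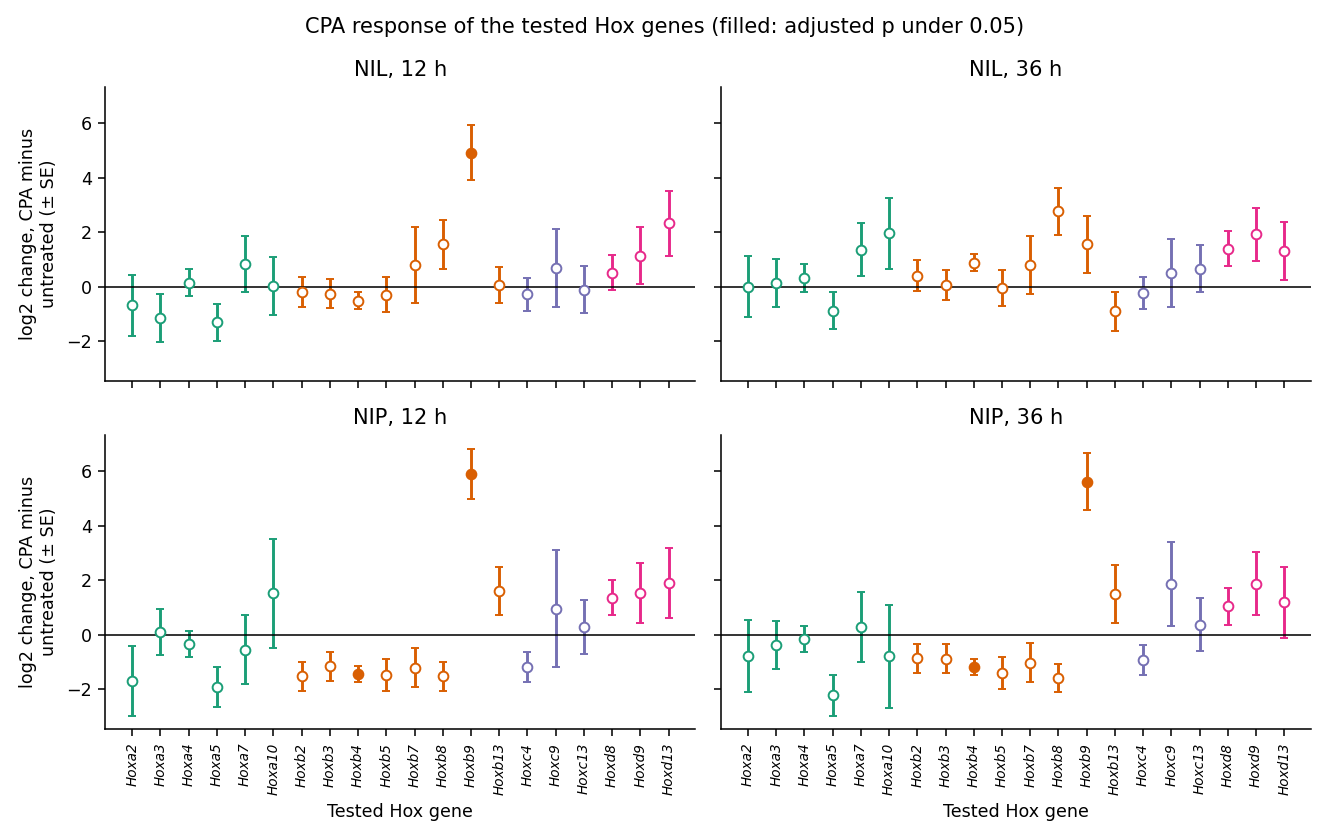
Log2 change with CPA against untreated (vertical axes, ± SE) of tested Hox genes in cluster order, for NIL (top) and NIP (bottom) at 12 h (left) and 36 h (right), filled where the edgeR adjusted p was under 0.05. Hoxb9 is filled and above 4 in 3 panels, and in NIP Hoxb2 to Hoxb8 lie below 0 with Hoxb4 filled.

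CPA libraries also had other neuron levels. The 10 neuron genes summed to a median of 8199 CPM in the 12 untreated libraries, those of 0 h included, and 5046 in the 8 with CPA, and the 10 endoderm markers to 1586 and 3285. These medians pool both lines, and the endoderm sums ran from 206 to 14368 CPM over the libraries. No endoderm marker passed with CPA in either line at 12 h or 36 h, with or without the replicate block. Among neuron genes, 1 of 10 was lower with CPA in NIL at 36 h (0.98% of all genes called) and none passed in the other 3 comparisons. In the blocked fit 5 and 8 of 10 were lower in NIL at 12 h and 36 h (7.94% and 18.2% of all genes called) and 5 and 3 in NIP (14.1% and 10.3%). Of 12 motor neuron genes 2 and 2 were lower with CPA in NIL at 12 h and 36 h and 1 and 1 in NIP, against 4, 6, 1 and 3 in the blocked fit. The part of these shifts in the Hox changes was not tested.

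Without treatment time moved few members. No member passed between 0 h and 12 h in either line (0% of all genes in both), nor between 0 h and 36 h in NIL (0.027%) or NIP (1.29%), while 1 member in each of the first 3 and 3 members in the last had an unadjusted edgeR p under the threshold. With the replicate block 3 of 21 passed in NIP at 36 h (9.09% of all genes): Hoxb4 rose by 0.90 ± 0.26 (adjusted p = 0.0376, 0.157 without the block), Hoxb8 rose by 2.01 ± 0.44 (0.0102, 0.0940 without), and Hoxb9 fell by 3.62 ± 1.00 (0.0374, 0.118 without). NIP at 0 h had 55 and 9 Hoxb9 reads in replicates 1 and 2, and at 36 h 3 and 1. The change of NIP over 36 h differed from that of NIL in no member (0% of all genes). For Hoxb8 that difference was 4.36 ± 0.99 (0.345, and 0.0560 with the block), and 2 members had an unadjusted edgeR p under the threshold.

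Partners and regulators of Hox genes were compared between the lines in the mean over 5 conditions by edgeR. There 49.5% of all tested genes were called (25.5% higher and 24% lower in NIP). Each count between the lines below is to be read against these shares. Of 9 Pbx, Meis and Pknox cofactors 5 were lower in NIP and 1 higher, with Pbx3 at -2.44 ± 0.18, Meis2 at -1.51 ± 0.25 and Pbx2 at 0.23 ± 0.06. Of 22 genes upstream of the clusters, 18 were tested, 12 were lower and 2 higher. The retinoid receptors Rxrg (-5.69 ± 0.22) and Rarb (-2.42 ± 0.18) were lower, and Gdf11, a signal for posterior Hox genes, was higher (1.28 ± 0.07). The median log2 difference of the upstream list was -1.06 and that of the cofactors -0.34, beside 0.01 over all tested genes.

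Among chromatin regulators of the clusters the median log2 difference was -0.20. The 19 genes of this list include Polycomb and Trithorax genes and others such as Ctcf. Of the 19, 6 were lower in NIP and 1 higher, a smaller share than the 49.5% of all genes. Ezh2 (-0.73 ± 0.06), Cbx8 (-0.52 ± 0.08) and Eed (-0.40 ± 0.09) of Polycomb were lower, and Men1 (0.27 ± 0.07) was higher. In the blocked fit 9 were lower and 2 higher (61.5% of all genes called). Of 11 genes of motor neuron columns and pools 6 were higher and 2 lower, with Alcam at 2.61 ± 0.10, Met at 1.75 ± 0.16 and Pou3f1 at -1.31 ± 0.15. Of 13 homeobox genes of the head and midbrain, which lie ahead of the Hox domains, 11 were tested and 10 were lower in NIP, among them Otx2 (-6.88 ± 0.32), Lhx2 (-5.27 ± 0.31), En2 (-3.32 ± 0.23) and Otx1 (-2.42 ± 0.27). The medians of the last 2 lists were 0.73 and -2.42. The summed level of the head and midbrain list was 52.5 to 81.3 CPM in NIL and 5.00 to 13.9 in NIP, with no overlap. The counts with CPA have other shares beside them. Of all tested genes CPA called 2.21% and 0.98% in NIL at 12 h and 36 h, and 4.71% and 2.33% in NIP. In the blocked fit these shares were 7.94%, 18.2%, 14.1% and 10.3% in the same order. With CPA, none of the 11 tested head and midbrain genes passed in any of the 4 comparisons. Of the 18 upstream genes 1 was lower in NIL at 12 h, 4 in NIP at 12 h and 1 in NIP at 36 h. In the blocked fit 1 head and midbrain gene was higher and 1 lower in NIL at 36 h and 1 lower in NIP at 12 h, and 4 upstream genes were lower in NIL at each time, 5 in NIP at 12 h and 2 in NIP at 36 h, with 1 higher in NIL at 36 h. Of the 9 cofactors 2 were lower, and of the 19 chromatin genes 2 higher, in NIP at 12 h and none in the other 3 comparisons. Blocked, 1 and 2 cofactors were lower in NIL at 12 h and 36 h and 4 and 3 in NIP, while 1 chromatin gene was higher in NIL at each time, 2 were higher in NIP at 12 h and 1 was lower in NIP at 36 h. Of the 11 column and pool genes 2 were lower in NIL at 36 h, 1 in NIP at 12 h and 2 in NIP at 36 h, and blocked 2 and 3 in NIL and 2 and 3 in NIP, with 1 higher in NIP at 36 h.

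Noncoding rows inside the clusters were few. Hotairm1, in the Hoxa cluster, had 374 reads in 20 libraries and did not pass between the lines (0.40 ± 0.26, edgeR adjusted p = 0.214). Hoxaas2 was higher in NIP (1.29 ± 0.31, 0.00371), and Halr1, beyond the anterior end of Hoxa, was lower (-2.97 ± 0.98, 0.0231) on 53 reads. None of these 3 passed with CPA. Hoxb5os had 8 reads in all, and no read fell on Mir10a, Mir10b or Mir196b in these total RNA libraries.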

How the data were processed

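Total RNA of 20 libraries was measured. The deposited files hold raw read counts per gene symbol, which the authors made with Picard, Bowtie2 2.3.2, TopHat2 2.1.1 and HTSeq 0.6.1p1 against GRCm38 (mm10), per the submitters' processing notes. The strand setting and annotation release are not given in the sources used here. Summary lines (7.77% to 18.7% of reads without a gene, 0.156% to 0.458% ambiguous, 18.2% to 52.6% not unique) were left out of library sizes. Ribosomal depletion keeps unspliced RNA in counts.

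Genes were filtered with filterByExpr (14792 of 24421 kept) and scaled by TMM in edgeR 4.0.16 (R 4.3.3). One robust quasi-likelihood fit of all 20 libraries with a mean per group gave 17 comparisons, with Benjamini-Hochberg adjustment over all tested genes and a threshold of 0.05, and was tested on simulated data. Standard errors are the fold divided by the root of F. Same-numbered libraries deviated together in 45 of 45 pairs of groups (r 0.243 to 0.763), so the numbers pair the samples, on evidence of the data alone. No replicate pair was within counting noise. Counting intervals are exact at 95% and cover counting error only. Lack of overlap was counted over all genes only for all NIP against all NIL libraries. Alternatives were DESeq2 1.42.0, its size factors, no filter, the replicate block, fewer groups, Rn45s left out, and libraries left out. Exon lengths, coding sequences and positions are from GENCODE vM21 and promoters from RefSeq.

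The members and the lists were chosen with earlier results of these data known. The comparison of replicates 2 and 1 was added after seeing the data. Members are named where a group mean reached 5 CPM or a test passed, with folds for at most 10 a comparison, and other lists give up to 4 genes with the smallest p. Values in every library are printed for Hoxa5, Hoxb2, Hoxb3, Hoxb4, Hoxb5, Hoxb8, Hoxb9, Hoxb13 and Hoxc13, and the other named members are given by their range or medians. Some items are not reported here, so lists name fewer genes than their counts hold.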

Additional observations from a re-analysis of the deposited data

Results flagged for a closer look

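With CPA at 36 h Hoxb4 was higher in NIL and lower in NIP, though the NIL change did not pass without the replicate block. The difference of the responses, NIP minus NIL, was -2.10 on the log2 scale in the edgeR fit with the replicate block (adjusted p = 0.0497) and -2.09 without it (0.328). From log2(CPM + 0.1) the difference was also -2.10. Both NIL replicates were higher with CPA (0.92 and 0.78) and both NIP replicates were lower (-1.02 and -1.49). Such opposite moves of both replicates were a rule by which Hoxb4 was flagged, so they are no separate support. On the log2(CPM + 0.1) scale Hoxb8 also went up in NIL (1.48 and 2.28) and down in NIP (-1.35 and -2.02), on 2 untreated NIL reads. Its difference of the responses did not pass in either fit. Both libraries rich in Rn45s, NIP at 36 h replicate 1 and NIL at 36 h with CPA replicate 2, enter this comparison.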

How the results depend on the processing

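Numbers of the 21 tested Hox genes past the threshold depended on the fit. With the replicate block the NIP against NIL counts were 10 at 0 h, 8 at 12 h with CPA and 12 at 36 h with CPA, the CPA counts were 2 and 4 in NIL at 12 h and 36 h and 7 and 6 in NIP, 3 passed over time in NIP at 36 h and 1 in the line difference of the CPA response at 36 h. The block left the line counts at 12 h and 36 h within 1.5 times and the count of the mean at 19. No Hox call made without the block was lost with it. With only the groups compared in the fit, the line counts were 1 at 0 h, 3 at 12 h, 3 at 12 h with CPA and 0 at 36 h with CPA, and that of CPA in NIP at 36 h was 0. Without the 2 libraries rich in Rn45s, 3 passed between lines at 36 h, 0 at 36 h with CPA and 0 for CPA in NIP at 36 h. With no filter on low counts 0 passed at 12 h with CPA and 1 for CPA in NIP at 36 h. With DESeq2 2 passed at 12 h with CPA, 4 at 36 h with CPA, 1 over time in NIP at 36 h and 1 (Hoxb4) in the line difference of the CPA response at 36 h. Leaving out 1 library at a time, the line counts ranged from 0 to 2 at 0 h, 2 to 3 at 12 h, 3 to 4 at 36 h, 0 to 0 at 12 h with CPA, 0 to 4 at 36 h with CPA and 14 to 19 in the mean. The CPA counts then ranged from 0 to 0 in NIL at 12 h and 0 to 1 in NIP at both times. No fold behind a Hox call of the fit without the block reversed its sign in the alternatives run, and other folds were not checked. The cause was not tested, except that fewer libraries or groups leave fewer degrees of freedom. Depth limits most posterior members, which had few reads.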
